A study of Mus musculus with 24 samples.

Results

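The Nodal signalling genes described here were 8 of the 51697 named genes of the count table: the ligands Nodal and Gdf3, the co-receptor Tdgf1, the receptor Acvr2b, the transcription partner Foxh1, the secreted antagonists Lefty1 and Lefty2, and the intracellular inhibitor Smad7. They were taken by gene name, but earlier results of these data were known when the members were chosen. The choice may therefore not be independent of the expression values, nor may comparisons of the members with all genes. RNA was sequenced from the established F1 hybrid mouse line F123 of embryonic stem (ES) cells, in which CTCF carries an auxin-inducible degron (CTCF-AID), so that auxin leads to destruction of the protein. CTCF is a zinc-finger protein that binds DNA and holds chromatin loops, and by its title the series concerns its binding near promoters and genes that depend on distant enhancers.

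The 12 groups held 2 libraries each. ES cells had received auxin for 0, 24, 48 or 96 h, with 1 µl of 500 mM stock solution added to each ml and fresh medium every 24 h. Cells of the same line were taken toward neural progenitors without auxin (control) or with auxin and collected on days 2, 4 and 6. In 2 washout groups auxin was removed on day 4 or on day 6 and the cells were collected 2 days afterwards. The degron was present in every group, controls included. Cells that lack the degron but received auxin are not analysed here, so effects of the compound and of CTCF loss cannot be told apart. The labels do not give the number of clones or the time at which auxin was started during differentiation, and they do not state whether the replicates of a group were grown separately, so p-values measure the spread between these libraries, which may be technical.

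Nodal is a secreted factor of the TGF-beta family that binds activin receptors such as Acvr2b together with the co-receptor Tdgf1 (Cripto). The receptors phosphorylate Smad2 and Smad3, which enter the nucleus with Smad4 and act on target genes with partners such as Foxh1. Lefty1 and Lefty2 block the ligand outside the cell and Smad7 blocks the receptor inside it, and all of these are themselves induced by the pathway or its relatives. In the mouse embryo the pathway maintains the epiblast, patterns the primitive streak and restrains neural differentiation, and mouse ES cells express most of its parts.

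On the mm10 build with the GENCODE vM21 annotation, Nodal lies on the plus strand at chr10:61417972-61425338 and Gdf3 on the minus strand at chr6:122605403-122610087. Tdgf1 lies at chr9:110939603-110946158 on the minus strand, and Acvr2b lies at chr9:119402118-119434995 on the plus strand of the same chromosome. Foxh1 is on the minus strand at chr15:76668225-76669948. The Lefty genes are neighbours on the plus strand of chromosome 1, Lefty2 at chr1:180893108-180899103 and Lefty1 at chr1:180935022-180938400, with starts 41914 bases apart. Acvr2b is overlapped by an antisense gene, Gm47320, that shares 0 exon bases with it, and the other members overlap no annotated gene. The coding sequences of Lefty1 and Lefty2 have 1104 bases each and are identical at 1014 of them (91.8%), with a longest identical run of 140 bases, so reads may have been split between the copies in a way the counts do not show.

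The set of RefSeq promoter sequences used here (GRCm38.p6) held 3 of the 8 members, Nodal, Acvr2b and Tdgf1. It held no sequence for Gdf3, Foxh1, Lefty1, Lefty2 and Smad7, and RefSeq itself was not searched for them. The sequences run from 250 bases before to 50 bases after the RefSeq start, and these 3 are shown because the set held no other member. Capitals mark AGNGGGC, a short part of the CTCF-type motif that was added after the letters had been seen and that 25.8% of 32851 promoters of this length hold on either strand. The Nodal promoter lies at chr10:61417722-61418021 on the plus strand, that of Acvr2b at chr9:119401928-119402227 on the plus strand and that of Tdgf1 at chr9:110946109-110946408 on the minus strand.
Nodal: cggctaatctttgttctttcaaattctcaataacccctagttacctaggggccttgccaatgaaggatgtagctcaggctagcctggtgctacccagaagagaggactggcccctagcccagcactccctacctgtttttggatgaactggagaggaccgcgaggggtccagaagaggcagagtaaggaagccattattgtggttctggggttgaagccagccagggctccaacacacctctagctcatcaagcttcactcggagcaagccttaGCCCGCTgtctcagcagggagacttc
Acvr2b: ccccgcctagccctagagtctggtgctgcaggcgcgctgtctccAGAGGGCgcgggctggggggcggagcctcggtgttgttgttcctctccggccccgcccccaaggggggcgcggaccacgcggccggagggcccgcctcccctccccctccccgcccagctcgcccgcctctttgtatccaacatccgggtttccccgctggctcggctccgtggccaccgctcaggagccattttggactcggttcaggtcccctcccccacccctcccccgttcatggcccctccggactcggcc
Tdgf1: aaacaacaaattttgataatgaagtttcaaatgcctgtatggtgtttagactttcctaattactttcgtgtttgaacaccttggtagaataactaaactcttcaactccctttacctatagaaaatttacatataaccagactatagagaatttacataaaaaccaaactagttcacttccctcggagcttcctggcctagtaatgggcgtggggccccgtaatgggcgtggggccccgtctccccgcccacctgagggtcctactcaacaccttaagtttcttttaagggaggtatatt
The match in Acvr2b (AGAGGGC) began 206 bases before the start on the plus strand, and the match in Nodal (GCCCGCT) began 24 bases after it and lay on the minus strand. Tdgf1 had none. The 3 windows held no match on either strand to the longer CTCF-type core motif (2.43% of promoters), the FoxH1-type motif AATNCACA (3.6%), the SMAD-type motif CAGACA (21%) or the SMAD palindrome GTCTAGAC (0.213%). The content of G and C was 54% for Nodal, 73.3% for Acvr2b and 41.7% for Tdgf1. A match is a description of the letters only, and neither a match nor its absence shows whether CTCF or a SMAD protein binds.

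Total counts ran from 24696374 to 29909368 in the 4 ES libraries of replicate 1, from 51686150 to 61681404 in those of replicate 2 and from 51053184 to 72048935 in the 16 differentiation libraries. Replicates of ES groups were further apart than those of differentiation groups: across genes, the log2 ratio of the pair had a standard deviation of 0.539 to 0.654 in ES cells and of 0.166 to 0.191 later, except for day 2 auxin cells, whose pair stood apart at 0.3. Of 8 markers of neural progenitors, 7 rose from ES cells to day 6 control cells while 10 of 10 pluripotency markers fell. Sox1 and Pax6 are transcription factors of that cell type. Pax6 had 2.68 and 7.89 CPM in ES cells at 0 h and 32.7 and 33.1 CPM in day 6 controls. Sox1 had 14.5 and 16.4 CPM in day 6 controls, between the ES libraries at 0 h (7.12 and 18.1 CPM). Between days 4 and 6 of control cells 4 of the 8 markers fell and 2 rose. Mean Pax6 was 65.4 CPM on day 4 and 32.9 CPM on day 6. On day 6, markers of fibroblasts (6 of 8 higher than in ES cells, 1 lower) and endoderm (4 of 8 higher) were also present, where 22% of all genes were higher. The endoderm sum was 514 to 528 CPM in these controls, 180 to 299 CPM in ES cells at 0 h and 360 to 611 CPM at 96 h of auxin. Whether the cells were of more than 1 type was not tested. In bulk RNA, fewer cells of a type and less RNA per cell cannot be told apart. Ctcf mRNA checks no label, because the degron acts on the protein.

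**Figure D1:**
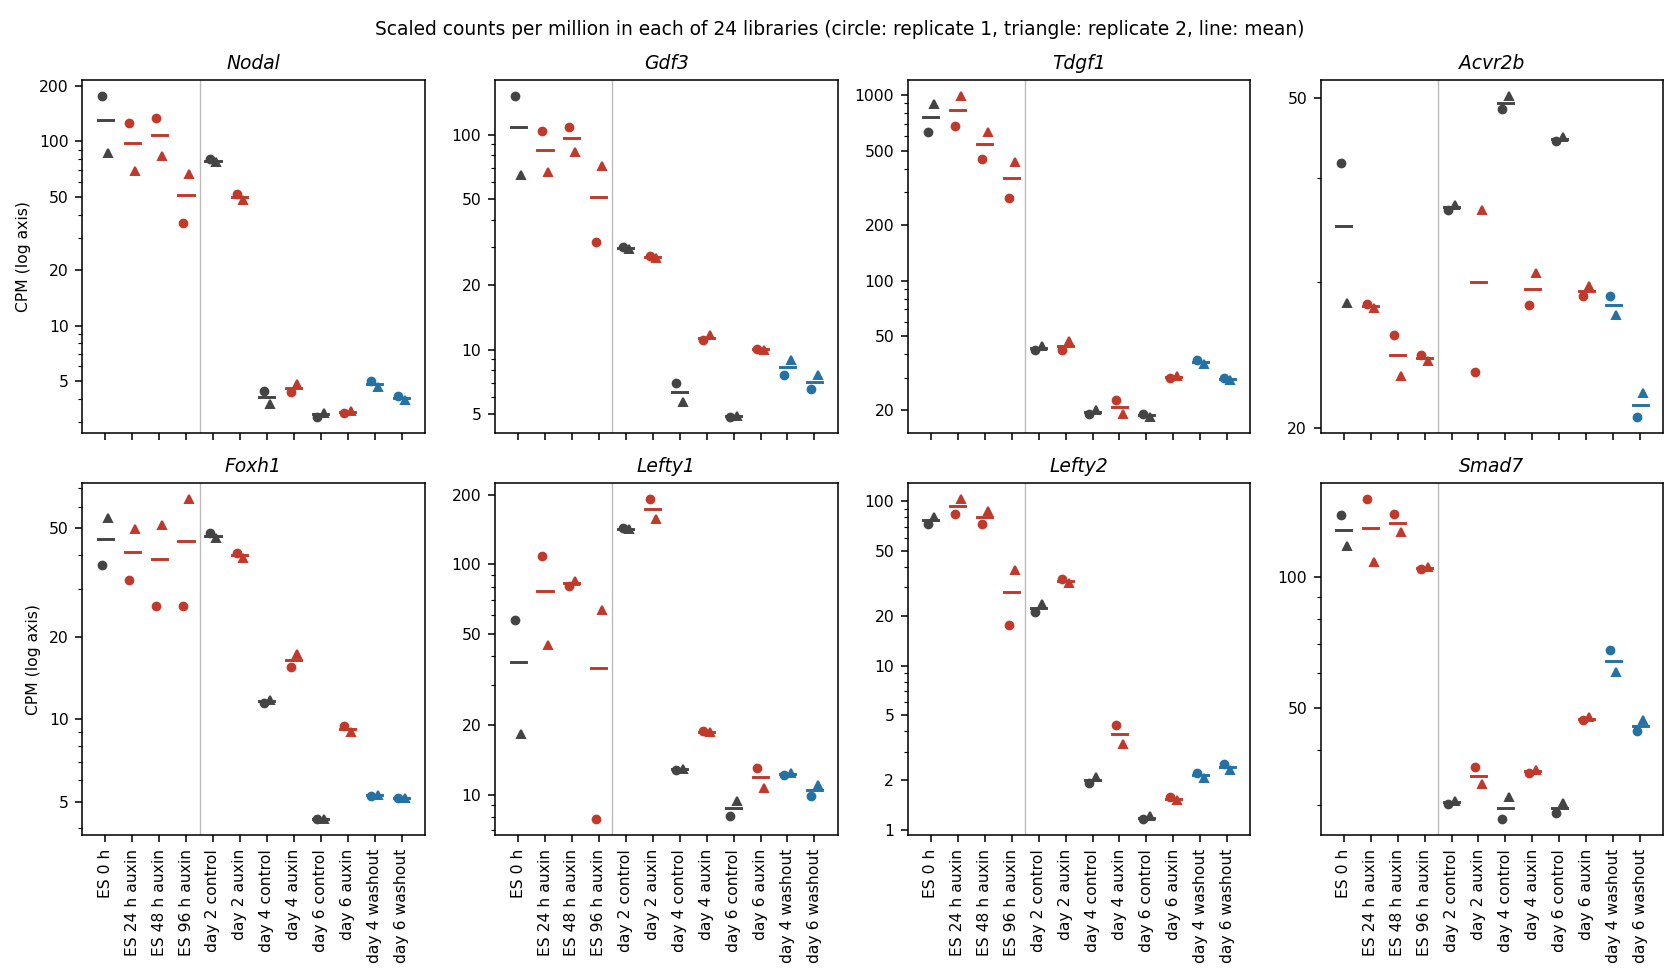
Library-scaled counts (CPM, log axis) of the 8 members in each of the 24 libraries, by group along the horizontal axis, with circles for replicate 1, triangles for replicate 2 and lines for group means (grey: without auxin, red: auxin, blue: washout). On day 6 Nodal, Gdf3, Tdgf1, Foxh1 and Lefty2 lie far below their ES levels at 0 h, Lefty1 peaks on day 2, and Acvr2b stays between 20.6 and 50.3 CPM.

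The first question was how the members behave when ES cells differentiate without auxin. Nodal, the ligand, was measured at 176 and 87.1 CPM (read counts divided by the TMM-scaled library size, the usual CPM unit) in ES cells at 0 h, at 79.9 and 77.6 CPM on day 2, at 4.42 and 3.77 CPM on day 4 and at 3.21 and 3.37 CPM on day 6. The day 2 libraries lay just below the lower ES library, and all later libraries were far below both. On day 2 the log2 fold change against ES cells was −0.74 ± 0.31 (SE) with an adjusted p of 0.11 by edgeR's quasi-likelihood test, and without ES replicate 2 it was −1.14 with an adjusted p of 0.013. Nodal fell by 5.00 ± 0.37 on day 4 (adjusted p = 1.1e-08), with a log2 fold change of −5.32 ± 0.38 on day 6 (4.3e-09), and the largest step was that between days 2 and 4 (−4.25 ± 0.0955, adjusted p = 3.9e-15).

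Gdf3, a ligand of the same family that can pair with Nodal, had 151 and 65.1 CPM in ES cells, 30.0 and 29.3 CPM on day 2, 6.99 and 5.70 CPM on day 4 and 4.89 and 4.91 CPM on day 6. No control library of any day reached the lower ES library. The fall against ES cells was already present on day 2, at −1.86 ± 0.34 (adjusted p = 0.001, edgeR), and reached −4.46 ± 0.39 on day 6 (5e-08).

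Tdgf1, the co-receptor, had 630 and 891 CPM in ES cells, 42.1 and 44.3 CPM on day 2, 19.02 and 20.03 CPM on day 4 and 19.2 and 18.5 CPM on day 6. Its ES libraries lay far above every control library. The fall on day 2 was −4.14 ± 0.24 (adjusted p = 2.1e-09, edgeR), the largest of the 8 members at that time, and on day 6 it was −5.33 ± 0.25 (3.9e-11). From day 4 to day 6 the difference was −0.04 ± 0.0858 (adjusted p = 0.78). Reads of Tdgf1 may be shared with its processed copy Tdgf1-ps1, so the split between them is uncertain. Their levels correlated at 0.993 over the 12 groups and at 0.815 over the 8 differentiation groups.

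Acvr2b, the receptor that binds Nodal and activins, had 41.7 and 28.3 CPM in ES cells, 36.7 and 37.2 CPM on day 2, 48.5 and 50.3 CPM on day 4 and 44.3 and 44.9 CPM on day 6. The day 4 and day 6 libraries lay above all ES and day 2 libraries, by a narrow margin over the higher ES library. It rose from day 2 to day 4 by 0.44 ± 0.13 (adjusted p = 0.0099, edgeR), and without day 4 control replicate 2 the adjusted p was 0.057. Against ES cells the difference was 0.50 ± 0.19 on day 4 (adjusted p = 0.044) and 0.35 ± 0.19 on day 6 (0.14). The day 4 call was lost without ES replicate 2 (adjusted p = 0.34) or without either day 4 control library (0.11 and 0.14), and the day 6 difference passed without ES replicate 1 (0.016).

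Foxh1, the DNA-binding partner of the SMADs, had 36.7 and 54.4 CPM in ES cells, 48.2 and 46.0 CPM on day 2, 11.5 and 11.8 CPM on day 4 and 4.30 and 4.31 CPM on day 6. Day 2 libraries lay between the ES libraries, and each later day lay below the one before. The day 2 difference was 0.05 ± 0.33 (adjusted p = 0.95, edgeR), and Foxh1 then fell by 2.00 ± 0.0784 from day 2 to day 4 (1.9e-12) and by 1.42 ± 0.0866 from day 4 to day 6 (3e-09). It was the member with the steepest fall between days 4 and 6.

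Lefty1, an antagonist that is itself a Nodal target, had 57.2 and 18.4 CPM in ES cells, 143 and 143 CPM on day 2, 12.9 and 12.9 CPM on day 4 and 8.08 and 9.37 CPM on day 6. Day 2 lay above both ES libraries and days 4 and 6 below them. It was the only member that rose on day 2, by 1.93 ± 0.61 (adjusted p = 0.036, edgeR), and the call was lost without ES replicate 2 (1.34, adjusted p = 0.17) or without either day 2 control library (adjusted p = 0.11 each). Between days 2 and 4 it fell by 3.45 ± 0.11 (1.7e-13). Against ES cells the day 4 value was −1.54 ± 0.61 (adjusted p = 0.053), which passed without ES replicate 2 (0.013). The day 6 value was −2.11 ± 0.62 (0.01), which did not pass without ES replicate 1 (−1.07, adjusted p = 0.21) or without either day 6 control library (0.078 and 0.054).

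Lefty2, its close relative, had 73.1 and 80.9 CPM in ES cells, 21.3 and 23.7 CPM on day 2, 1.94 and 2.11 CPM on day 4 and 1.16 and 1.22 CPM on day 6. Unlike Lefty1 it was below the ES level on day 2, by −1.78 ± 0.25 (adjusted p = 7.4e-05, edgeR). From day 2 to day 4 it fell by 3.45 ± 0.13 (7.8e-13), the same step as Lefty1, and on day 6 its log2 fold change against ES cells was −6.01 ± 0.31 (7.4e-11), the largest fall of the 8 members. Smad7, the inhibitor of the receptor, lies on chromosome 18 and had 139 and 118 CPM in ES cells, 30.2 and 30.6 CPM on day 2, 27.7 and 31.3 CPM on day 4 and 28.7 and 30.3 CPM on day 6. It fell by 2.08 ± 0.15 to day 2 (adjusted p = 3.7e-08), and the control days overlapped. The day 4 against day 2 difference was −0.02 ± 0.0808 (0.83).

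**Figure D2:**
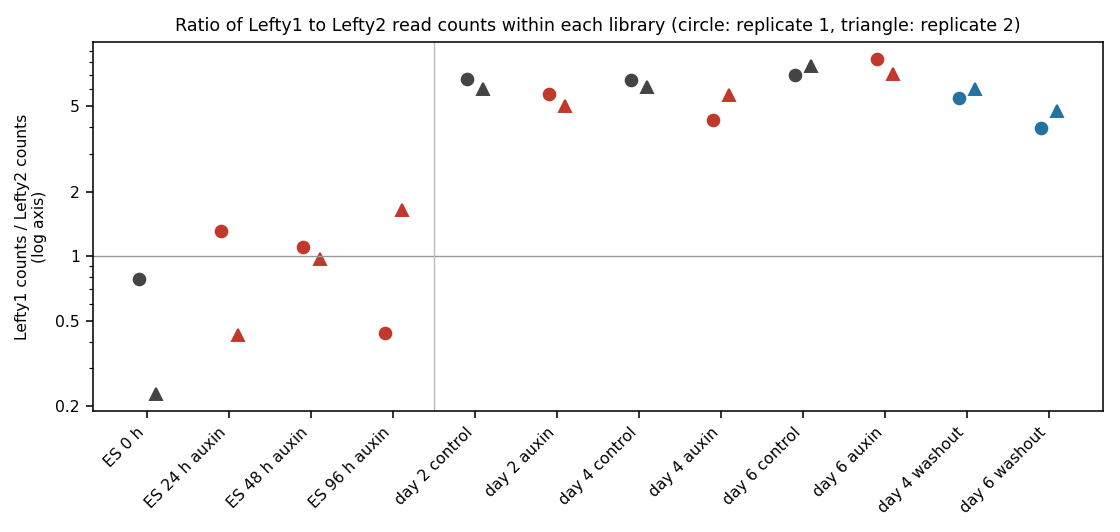
Ratio of Lefty1 to Lefty2 read counts (log axis) within each library, by group along the horizontal axis, with circles for replicate 1 and triangles for replicate 2. The 8 ES libraries lie between 0.227 and 1.64 and the 16 differentiation libraries between 3.95 and 8.27, with no overlap.

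The ratio of Lefty1 to Lefty2 counts within a library does not depend on library scaling. At 0 h in ES cells it was 0.782 and 0.227, and on day 2 in control cells it was 6.72 and 6.03. Over all 8 ES libraries it ran from 0.227 to 1.64, and over all 16 differentiation libraries from 3.95 to 8.27, so these ranges did not overlap. On the scale of CPM per kilobase of merged exons, Lefty1 had the highest level of the 8 members on day 2 (81.3, against 37.6 for Nodal and 8.61 for Lefty2). In ES cells at 0 h the highest level per kilobase was that of Tdgf1 (290), followed by Nodal (62.7), and the lowest was that of Acvr2b (8.91). In day 6 control cells Acvr2b was the highest (11.3), ahead of Tdgf1 (7.19), and Lefty2 the lowest (0.455).

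Counted over the 8 members, 4 fell and 1 rose from ES cells to day 2, where 7.91% of all 23831 genes tested fell and 10.3% rose. By day 4, 6 fell and 1 rose (18.6% and 19.9% of all genes), and by day 6, 7 fell and 0 rose (21.8% and 22%). The members' median log2 fold change was −1.26 on day 2, −3.10 on day 4 and −3.93 on day 6, against −0.00836, −0.0352 and −0.0712 over all genes tested. These comparisons with ES cells come from a fit of all 24 libraries. Its common dispersion, edgeR's measure of spread between replicates, was 0.0439, against 0.134 in the ES libraries alone. Standard errors and p-values of comparisons with ES cells may therefore be too small. Between days 2 and 4, 6 fell and 1 rose (24.8% and 27.2% of 22587 genes), and between days 4 and 6, 5 fell and 0 rose (13.1% and 13.6%). In that last step the falls of Nodal (−0.30, adjusted p = 0.044) and Gdf3 (−0.36, 0.026) did not pass without day 4 control replicate 1 (0.38 and 0.33) or without day 6 control replicate 1 (0.21 and 0.12) or 2 (0.1 and 0.11). The pluripotency markers moved with these falls: their summed level was 3420 to 4720 CPM in ES cells, 2150 to 2200 CPM on day 2, 798 to 805 CPM on day 4 and 475 to 492 CPM on day 6, and their part in the result was not tested.

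The second question was what auxin does to the members in ES cells. By edgeR's quasi-likelihood test 0 of 8 members passed at 24, 48 or 96 h, and 0% of 20361 genes passed at each time. An unadjusted p below 0.05 was reached by 548, 1039 and 1767 of these genes, and DESeq2 called 76, 154 and 365. Among members, 0 had an unadjusted p below 0.05 at 24 and 48 h, and Lefty2 (0.0023), Tdgf1 (0.0067) and Nodal (0.017) had one at 96 h.

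Lefty2 was the member with the largest 96 h difference. Its level was 73.1 and 80.9 CPM at 0 h, 83.6 and 103 CPM at 24 h, 73.0 and 87.4 CPM at 48 h and 17.7 and 38.5 CPM at 96 h. Both 96 h libraries lay below all other ES libraries. The log2 fold change was −1.47 ± 0.34 (adjusted p = 0.33, edgeR). With the replicate number as a block, an alternative edgeR fit, the adjusted p was 0.022. Deviations of same-numbered replicates correlated at 0.183 between the 0 h and 96 h groups, the lowest value among pairs of ES groups.

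Tdgf1 had 630 and 891 CPM at 0 h, 678 and 982 CPM at 24 h, 452 and 629 CPM at 48 h and 280 and 437 CPM at 96 h. Replicate 2 was above replicate 1 at each time, and both 96 h libraries lay below all earlier ones. The 96 h log2 fold change was −1.10 ± 0.31 (adjusted p = 0.37), and with the replicate block the adjusted p was 0.013. Within replicates the log2 ratio of 96 h to 0 h was −1.17 and −1.03. With the block, Tdgf1 and Lefty2 were thus the 2 members that fell at 96 h, where 1.6% of all genes fell.

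Nodal had 176 and 87.1 CPM at 0 h, 126 and 69.4 CPM at 24 h, 133 and 83.5 CPM at 48 h and 36.0 and 66.4 CPM at 96 h. Its 96 h value of −1.38 ± 0.47 had an adjusted p of 0.43 without and 0.13 with the block, and within replicates it was −2.29 and −0.39. Gdf3 was lower at 96 h in replicate 1 only, with levels of 151 and 65.1 CPM at 0 h and 31.5 and 71.3 CPM at 96 h, that is −2.26 and 0.13 within replicates. Lefty1 went opposite ways in the replicates, with 57.2 and 18.4 CPM at 0 h against 7.81 and 63.1 CPM at 96 h, so its log2 ratio was −2.87 in replicate 1 and 1.78 in replicate 2.

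Acvr2b had 41.7 and 28.3 CPM at 0 h, 28.2 and 27.9 CPM at 24 h, 25.9 and 23.1 CPM at 48 h and 24.5 and 24.1 CPM at 96 h. All 6 auxin libraries lay below both 0 h libraries, but the 96 h difference was −0.54 ± 0.28 (adjusted p = 0.64 without and 0.21 with the block). Foxh1 differed at 96 h by −0.03 ± 0.47 and Smad7 by −0.30 ± 0.24, with adjusted p of 0.99 and 0.8. The standard errors of the 96 h differences ran from 0.24 for Smad7 to 0.85 for Lefty1.

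**Figure D3:**
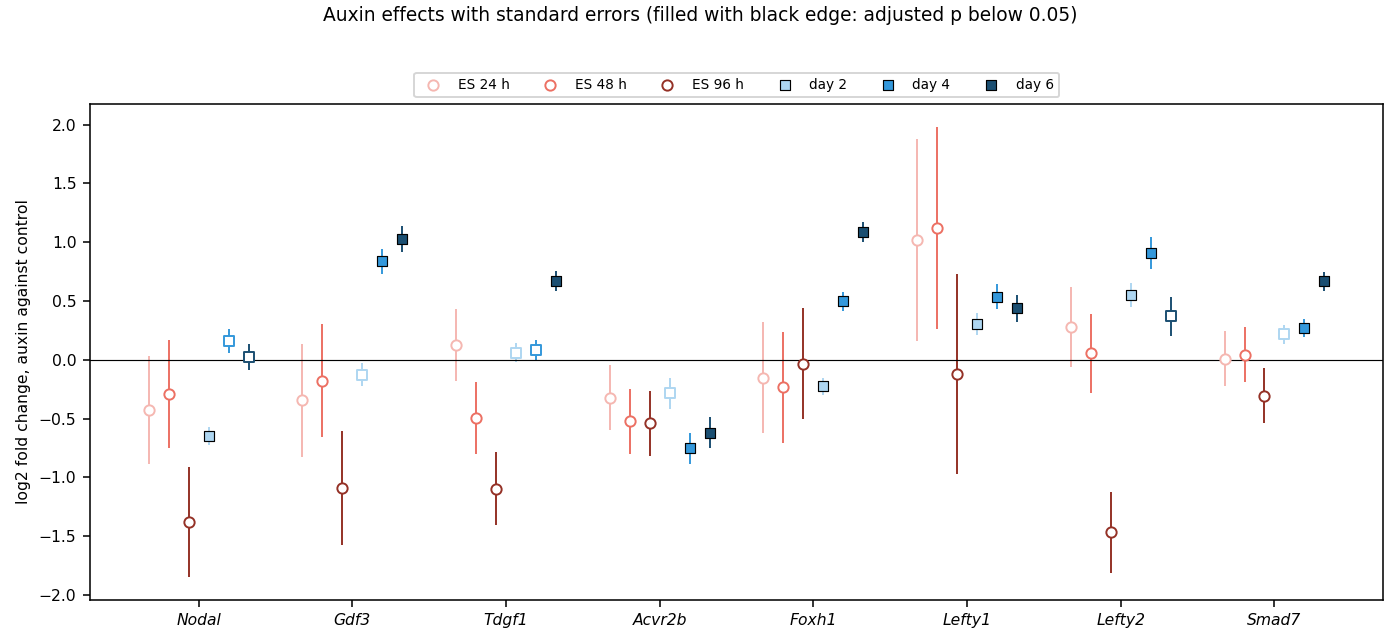
Log2 fold change of auxin against control for each member, with standard errors, in ES cells after 24, 48 and 96 h (circles) and on days 2, 4 and 6 of differentiation (squares), where filled symbols with a black edge have an adjusted p below 0.05. Error bars in ES cells are wider than those in differentiating cells for each member, to different degrees. Acvr2b lies below 0 in all 6 comparisons.

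The third question was what auxin does to the members during differentiation. On day 2, 2 of 8 members rose and 2 fell (9.84% and 8.43% of 22587 genes); on day 4, 5 rose and 1 fell (11.8% and 11.8%); and on day 6, 5 rose and 1 fell (14% and 15.2%). The members' median log2 fold change was −0.03 on day 2, 0.38 on day 4 and 0.55 on day 6, against 0.023, 0 and 0.0079 over all genes. In a single fit of all 24 libraries, in which the wide spread of ES replicates enters, 0 members passed on day 2, 1 on day 4 (Acvr2b) and 1 on day 6 (Smad7). The main fit shares 1 spread per gene over all differentiation groups. Across genes the day 2 auxin pair was further apart (standard deviation 0.3) than the other pairs (0.166 to 0.191). Standard errors and p-values of comparisons that involve day 2 auxin cells may therefore be too small.

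Nodal itself was lower with auxin early and not later. On day 2 it had 51.6 and 48.0 CPM with auxin against 79.9 and 77.6 CPM without. Both auxin libraries lay well below both controls, and Nodal fell by 0.65 ± 0.079 (adjusted p = 2.2e-05, edgeR). On day 4 it had 4.37 and 4.80 CPM against 4.42 and 3.77 CPM and on day 6 3.34 and 3.42 CPM against 3.21 and 3.37 CPM, where the groups overlapped and the differences were 0.16 ± 0.1 (0.31) and 0.03 ± 0.11 (0.89).

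Gdf3 had 27.2 and 26.6 CPM with auxin on day 2 against 30.0 and 29.3 CPM without, a difference of −0.13 ± 0.0971 (adjusted p = 0.41). It had 11.04 and 11.7 CPM on day 4 against 6.99 and 5.70 CPM, and 10.1 and 9.98 CPM on day 6 against 4.89 and 4.91 CPM. On both later days the auxin libraries lay above the controls, and Gdf3 rose by 0.84 ± 0.11 (2.1e-05) and 1.02 ± 0.11 (2.1e-06).

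Tdgf1 on day 2 had 42.01 and 47.2 CPM with auxin against 42.1 and 44.3 CPM, and on day 4 22.6 and 19.02 CPM against 19.02 and 20.03 CPM, with overlapping groups. On day 6 it had 30.0 and 30.6 CPM against 19.2 and 18.5 CPM, and it rose by 0.67 ± 0.085 (adjusted p = 1.2e-05, edgeR).

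Acvr2b was the member that fell on both later days. On day 4 it had 28.1 and 30.7 CPM with auxin against 48.5 and 50.3 CPM without, and on day 6 28.8 and 29.6 CPM against 44.3 and 44.9 CPM. The groups stood clear of each other on both days, and Acvr2b fell by 0.75 ± 0.13 (adjusted p = 0.00043, edgeR) and by 0.62 ± 0.13 (0.0016). On day 2 its auxin libraries were 23.3 and 36.7 CPM against 36.7 and 37.2 CPM, so replicate 1 alone was low. The day 2 difference was −0.28 ± 0.13 (0.16), and without auxin replicate 2 it was −0.65.

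Foxh1 had 40.7 and 39.1 CPM with auxin on day 2 against 48.2 and 46.0 CPM, 15.5 and 17.4 CPM on day 4 against 11.5 and 11.8 CPM and 9.45 and 8.99 CPM on day 6 against 4.30 and 4.31 CPM. The auxin libraries were below the controls on day 2 and above them on days 4 and 6. Foxh1 fell on day 2 by 0.22 ± 0.0736 (adjusted p = 0.044, edgeR), a call lost without either control library (0.26 and 0.087) or without auxin replicate 2 (0.083). It rose by 0.50 ± 0.079 on day 4 (0.00018) and by 1.09 ± 0.088 on day 6 (7.4e-08).

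Lefty1 had 192 and 158 CPM with auxin on day 2 against 143 and 143 CPM, 18.8 and 18.8 CPM on day 4 against 12.9 and 12.9 CPM and 13.1 and 10.7 CPM on day 6 against 8.08 and 9.37 CPM. On each day both auxin libraries were above both controls. It rose by 0.30 ± 0.0963 on day 2 (adjusted p = 0.038, edgeR), by 0.54 ± 0.11 on day 4 (0.0013) and by 0.44 ± 0.11 on day 6 (0.007). The day 2 call was lost without auxin replicate 1 (0.13, adjusted p = 0.25) or without either control library (adjusted p = 0.19 and 0.2), and the day 6 call without auxin replicate 1 (0.28, adjusted p = 0.15) or control replicate 1 (0.33, adjusted p = 0.098).

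Lefty2 had 33.6 and 31.7 CPM with auxin on day 2 against 21.3 and 23.7 CPM, 4.35 and 3.32 CPM on day 4 against 1.94 and 2.11 CPM and 1.59 and 1.51 CPM on day 6 against 1.16 and 1.22 CPM. The groups did not overlap on any day. Lefty2 rose by 0.55 ± 0.1 on day 2 (adjusted p = 0.0012, edgeR) and by 0.91 ± 0.14 on day 4 (0.00011), and on day 6, at under 2 CPM, the difference was 0.37 ± 0.17 (0.11). On day 2, therefore, transcripts of both Lefty antagonists were higher and that of their ligand Nodal was lower in the same libraries.

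Smad7 had 36.5 and 33.4 CPM with auxin on day 2 against 30.2 and 30.6 CPM, 35.5 and 36.1 CPM on day 4 against 27.7 and 31.3 CPM and 46.8 and 47.7 CPM on day 6 against 28.7 and 30.3 CPM. The auxin libraries were above the controls on every day. The day 2 difference was 0.22 ± 0.0806 (adjusted p = 0.078, edgeR; 0.0075 without auxin replicate 2). It rose by 0.27 ± 0.0806 on day 4 (0.022), a call lost without control replicate 1 (0.24) or auxin replicate 1 (0.083) or 2 (0.11), and by 0.67 ± 0.0802 on day 6 (6.9e-06).

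The auxin effects of different days were compared in the same fit. From day 2 to day 4 the effect increased for Nodal (by 0.81 ± 0.13, adjusted p = 0.00071, edgeR), Gdf3 (0.97 ± 0.14, 0.00041) and Foxh1 (0.72 ± 0.11, 4e-04), 3 of 8 members, where 4.56% of all genes increased. Without day 2 auxin replicate 1 the effect changed by 0.41 for Lefty1 and by −0.73 for Acvr2b, against 0.24 and −0.47 with all libraries. From day 4 to day 6 it increased for Tdgf1 (0.59 ± 0.12, 0.009) and Foxh1 (0.59 ± 0.12, 0.0077), 2 of 8 members against 2.05% of genes. That of Tdgf1 did not pass without day 4 control replicate 2 (0.06), day 4 auxin replicate 2 (0.064) or day 6 control replicate 2 (0.052), and that of Foxh1 did not pass without day 6 auxin replicate 1 (0.051).

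Set against the 96 h effect in ES cells, the day 4 effect was higher for Lefty2 by 2.37 ± 0.36 (adjusted p = 0.0034, edgeR), 1 of 8 members where 0.462% of 23831 genes passed upward. This contrast uses the fit of all 24 libraries, whose shared spread lies below that of ES cells, so its standard errors and p-values may be too small. For the 96 h effect on Lefty2 alone, that edgeR fit gave an adjusted p of 0.0013, against 0.33 in the ES libraries. With the replicate block Tdgf1 passed too (adjusted p = 0.03, against 0.068 without), where 0.6% of genes did. Without 96 h replicate 2 the difference was 2.04 for Nodal, 2.62 for Gdf3, 1.54 for Tdgf1 and 2.81 for Lefty1. With all libraries these values were 1.52, 1.91, 1.18 and 0.62, and they did not pass. Without 0 h replicate 2 the difference was 1.93 for Nodal and 2.38 for Gdf3. Without 0 h replicate 1 that of Tdgf1 was 1.41.

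Markers of other cell states moved with the auxin effects of days 4 and 6. Of 10 pluripotency markers 7 rose and 1 fell on day 4 and 8 rose and 1 fell on day 6. Their summed level was 1150 to 1160 CPM with auxin on day 4 against 798 to 805 CPM, and 895 to 907 CPM on day 6 against 475 to 492 CPM, with no marker at 0. Of 8 neural progenitor markers 7 fell and 1 rose on each of these days, and their sum was 140 to 146 CPM on day 4 against 251 to 264 CPM and 158 to 166 CPM on day 6 against 244 to 247 CPM. The 8 primitive streak and mesoderm markers summed to 54.3 CPM with auxin in both libraries on day 4 against 18.2 to 18.4 CPM, and to 44.5 to 47.3 CPM on day 6 against 13.3 to 13.6 CPM. Of the 7 tested, 2 rose on each day, with Mesp1 at 0 in the day 4 controls. Most of these sums, with and without auxin, came from 1 gene, Eomes, whose levels are given below with the target transcription factors. On day 6 fibroblast markers summed to 256 to 267 CPM with auxin against 477 to 482 CPM (6 of 8 fell), and node and floor plate markers to 58 to 61.6 CPM against 91.3 to 94.4 CPM (1 of 8 rose and 2 fell). The part of these markers in the members' results was not tested. On day 2, when Nodal fell, the pluripotency sum was 2000 to 2070 CPM with auxin and 2150 to 2200 CPM without, with 1 of 10 markers higher and 3 lower. The streak and mesoderm sum was 78.8 to 83.8 CPM against 60.6 to 61.2 CPM (1 of 7 higher, 1 lower), and the endoderm sum was 295 to 306 CPM against 242 to 248 CPM (4 of 8 higher, 1 lower). Fibroblast markers summed to 87.9 to 101 CPM against 58.7 to 61.2 CPM (2 of 8 higher), with Lum at 0 in the auxin cells. The part of these day 2 values was not tested either.

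The washout groups asked whether the members returned toward control levels once auxin was removed. Cells washed out on day 4 and collected on day 6 were set against day 6 auxin cells and day 6 control cells. Against auxin cells 4 of 8 members rose and 1 fell (17.3% and 17.3% of genes), and against control cells 7 rose and 1 fell (16.8% and 17.1%). The members' median was 0.18 above auxin cells and 0.66 above control cells on the log2 scale, where the medians of all genes were −0.0042 and 0. In the fit of all 24 libraries 0 members passed against auxin cells and 3, Tdgf1, Acvr2b and Smad7, against control cells.

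**Figure D4:**
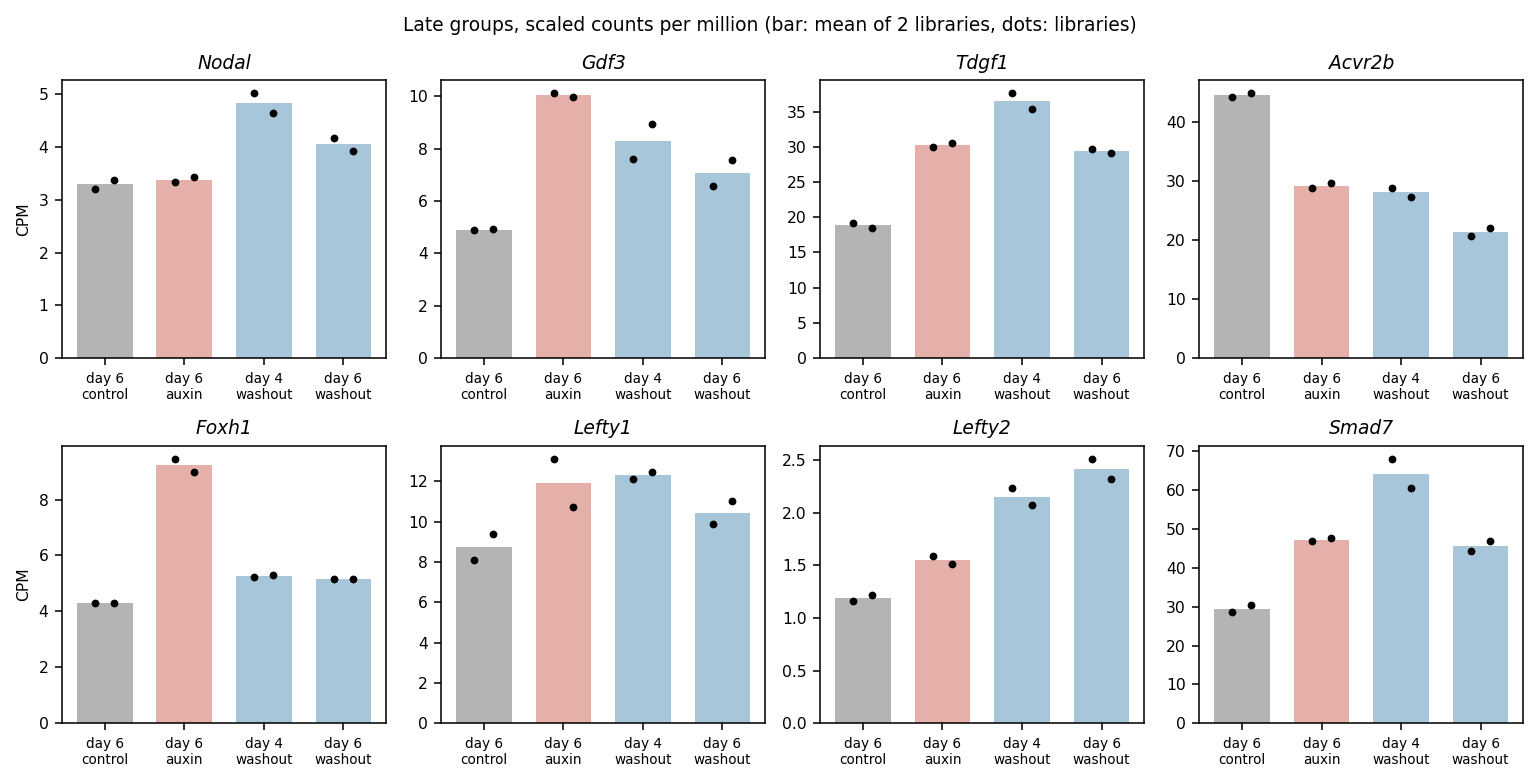
Scaled CPM of each member in day 6 control, day 6 auxin, day 4 washout (collected on day 6) and day 6 washout libraries (collected 2 days later), with bars for means of 2 libraries and dots for the libraries. Foxh1 in both washout groups lies close to control, Acvr2b does not return to it, and Smad7 and Tdgf1 are highest in the day 4 washout.

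Foxh1 was the 1 member that fell against auxin cells, toward the control level. It had 5.24 and 5.31 CPM in the day 4 washout, between auxin cells (9.45 and 8.99 CPM) and controls (4.30 and 4.31 CPM). It fell against auxin cells by 0.79 ± 0.0878 (adjusted p = 4e-06, edgeR) and was still 0.30 ± 0.0925 above controls (0.019), a call lost without any 1 of the 4 libraries (0.069 to 0.086). Acvr2b had 28.9 and 27.3 CPM, close to auxin cells (28.8 and 29.6 CPM), from which it differed by −0.04 ± 0.13 (0.87). Against controls its log2 fold change was −0.66 ± 0.13 (0.001).

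Smad7 had 68.0 and 60.4 CPM in the day 4 washout, above every other differentiation library. It rose by 0.46 ± 0.079 against auxin cells (adjusted p = 0.00027, edgeR) and by 1.13 ± 0.0803 against controls (2.3e-08). Tdgf1, at 37.6 and 35.4 CPM, rose by 0.29 ± 0.0835 (0.013) and 0.96 ± 0.0849 (2.8e-07), and Nodal, at 5.02 and 4.65 CPM, by 0.54 ± 0.11 (0.00098) and 0.56 ± 0.1 (0.00055). The rise of Tdgf1 against auxin cells did not pass without washout replicate 1 (0.11) or either auxin library (0.079 and 0.064).

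Lefty2 had 2.23 and 2.07 CPM in the day 4 washout, above auxin cells (1.59 and 1.51 CPM) by 0.49 ± 0.15 (adjusted p = 0.022, edgeR) and above controls by 0.86 ± 0.16 (0.00049). The first of these calls was lost without washout replicate 1 (0.12) or either auxin library (0.07 and 0.12). Lefty1, at 12.1 and 12.5 CPM, and Gdf3, at 7.61 and 8.95 CPM, differed from auxin cells by 0.06 ± 0.11 (0.7) and −0.26 ± 0.11 (0.075). Both stayed above controls, by 0.50 ± 0.11 (0.0025) and 0.77 ± 0.11 (6e-05).

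Cells washed out on day 6 were collected 2 days later than the day 6 auxin cells, so washout and time cannot be told apart in them. Against day 6 auxin cells 1 of 8 members rose and 3 fell (20.4% and 19.9% of genes), with a median of −0.11 against −0.000567 over all genes. Foxh1, at 5.17 and 5.15 CPM, fell by 0.82 ± 0.0873 (adjusted p = 1.6e-06, edgeR), Gdf3, at 6.57 and 7.58 CPM, by 0.49 ± 0.11 (0.0019), and Acvr2b, at 20.6 and 22.02 CPM, by 0.44 ± 0.13 (0.016). These were the lowest Acvr2b libraries of the series. The Acvr2b call was lost without any 1 of the 4 libraries (adjusted p = 0.055 to 0.12). Lefty2, at 2.51 and 2.32 CPM, rose by 0.65 ± 0.15 (0.0027). In the fit of all 24 libraries 0 members passed.

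Fibroblast markers moved with the washouts: all 8 rose in the day 6 washout against day 6 auxin cells and 6 of 8 rose in the day 4 washout. Their summed level was 547 to 567 CPM in the day 4 washout and 1070 to 1110 CPM in the day 6 washout, against 256 to 267 CPM in day 6 auxin cells and 477 to 482 CPM in day 6 controls. No fibroblast marker was at 0 in these groups. Endoderm markers summed to 616 to 656 CPM in the day 4 washout (2 of 8 rose against auxin cells) and to 786 to 833 CPM in the day 6 washout (6 of 8 rose), against 590 to 601 CPM in auxin cells. Streak and mesoderm markers summed to 16.4 to 17.6 CPM and 21.5 to 23.8 CPM in these washouts against 44.5 to 47.3 CPM, with 2 and 1 of 7 tested lower. Most of the sum in auxin cells came from Eomes. In the day 4 washout neural progenitor markers summed to 220 to 228 CPM. Auxin cells had 158 to 166 CPM and day 6 controls 244 to 247 CPM. Against controls 6 of 8 fell and 1 rose, with a median log2 fold change of −2.31. Against auxin cells 3 rose and 2 fell. Pluripotency markers summed to 728 to 751 CPM, against 895 to 907 CPM in auxin cells and 475 to 492 CPM in controls. Of the 10, 4 fell and 1 rose against auxin cells, and 9 rose and 1 fell against controls. The part of these markers in the members' results was not tested.

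**Figure D5:**
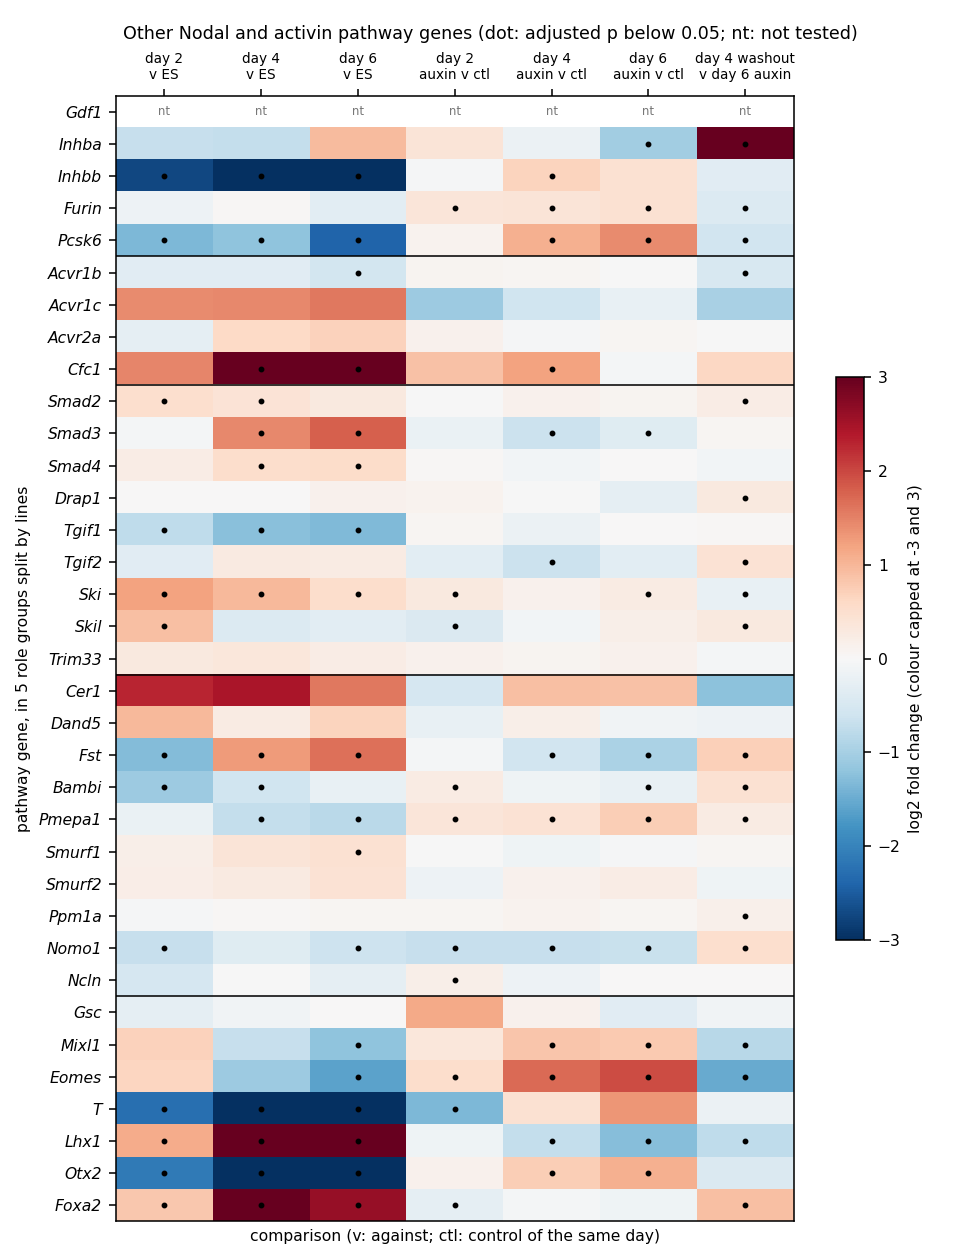
Log2 fold changes (colour, capped at −3 and 3) of 35 of the 36 other pathway genes, grouped in 5 roles along the vertical axis, in 7 comparisons along the horizontal axis, with a dot where the adjusted p is below 0.05 and nt where a gene was not tested. Among auxin comparisons Eomes and Pcsk6 are higher and Nomo1 and Smad3 lower on days 4 and 6, and Inhba is higher in the day 4 washout.

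Around the 8 members, 36 other genes of the pathway were listed in 5 roles, of which 35 had enough counts to be tested in differentiating cells and 32 in ES cells. On day 2, 6 of the 35 were higher with auxin and 5 lower past the threshold, leaving 24 others, where 9.84% and 8.43% of all genes were. The day 4 numbers were 8 up, 5 down and 22 not past the threshold (11.8% of all genes up and 11.8% down), and those of day 6 were 7, 7 and 21 (14% up and 15.2% down). The same shares are the background for the 5 roles. The list's median was 0.0531, 0.0568 and 0.0138 on these days, and in ES cells 0 of 32 passed at any time by edgeR's test. At 96 h in ES cells 3 of these had an unadjusted p below 0.05, 2 passed by DESeq2 and 4 passed with the replicate block. The difference between this list and the members was not tested.

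Among the ligands and their convertases, 3 of 4 tested rose on day 4. Pcsk6, a protease that cuts Nodal and Lefty precursors, rose from 78.7 to 166 CPM on day 4 (1.07 ± 0.0737, adjusted p = 1.7e-08, edgeR) and from 34.1 to 91.5 CPM on day 6 (1.42 ± 0.0756, 6.5e-10). Inhba, which encodes a subunit of activin A, fell on day 6 by 1.05 ± 0.25 (0.0036), from 2.04 to 0.983 CPM. It rose to 7.76 CPM in the day 4 washout, 2.99 ± 0.23 above auxin cells (5.3e-08), and to 16.1 CPM in the day 6 washout, 4.04 ± 0.22 above them (9.7e-10). Of the 4 receptors and co-receptors, Cfc1, a relative of Tdgf1, rose on day 4 by 1.21 ± 0.34 (0.015), from 0.909 to 2.11 CPM.

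Of the 8 target transcription factors, 1 rose and 3 fell on day 2, 3 rose and 1 fell on day 4 and 3 rose and 2 fell on day 6. Eomes, which is needed for mesendoderm, rose from 15.6 to 50.8 CPM on day 4 (1.69 ± 0.0733, adjusted p = 1.2e-10, edgeR) and from 11.01 to 43.3 CPM on day 6 (1.96 ± 0.0751, 1.8e-11). It fell by 1.52 ± 0.074 in the day 4 washout against auxin cells (4.8e-10). Otx2, a factor of the epiblast and forebrain, rose on day 6 by 1.07 ± 0.22 (0.0013), while Lhx1 fell by 1.27 ± 0.14 (2e-06). On day 2 T (brachyury), a streak gene, fell by 1.35 ± 0.27 (0.0022) and Foxa2 by 0.26 ± 0.0817 (0.035), while Eomes rose by 0.53 ± 0.0692 (4.7e-05).

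Of the 10 antagonists, 3 rose and 1 fell on day 2, 1 rose and 2 fell on day 4 and 1 rose and 3 fell on day 6. Nomo1, whose product takes part in a complex that limits Nodal signalling in zebrafish, fell by 0.68 ± 0.0543 on day 2 (adjusted p = 2.3e-07, edgeR), from 170 to 105 CPM. Fst, which binds activins, rose in the day 6 washout by 2.19 ± 0.11 (3.4e-10), to 69.3 CPM. Of the 9 SMADs and nuclear partners, 1 rose and 1 fell on days 2 and 6 and 2 fell on day 4, and on day 2 Skil, a repressor of SMAD targets, fell by 0.45 ± 0.0964 (0.0037).

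Genes with a start within 200 kb of a member's start were tested beside it. Around Acvr2b, 3 of 10 tested neighbours fell and 0 rose on day 4, when Acvr2b fell: Xylb (−0.725, adjusted p = 2.3e-06, edgeR), 4930516B21Rik (−0.534, 0.0032) and Oxsr1 (−0.168, 0.048). On day 6, Xylb (−0.501), 4930516B21Rik (−0.622), Exog (−0.351) and Oxsr1 (−0.235) fell and Slc22a13b-ps (0.875) rose. On day 2, when Acvr2b did not pass, 1 of the 10, Xylb, fell (−0.447). Exog starts 42825 bases from Acvr2b, and Xylb lies on the other side of it.

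Around Gdf3, which lies in a cluster of pluripotency genes, 4 of 11 tested neighbours rose with it on day 4, namely Dppa3 (1.18), Gm10224 (0.982), Apobec1 (0.759) and Nanog (0.694), and 3 on day 6, Apobec1 (1.99), Dppa3 (1.84) and Nanog (0.897). On day 2, when Gdf3 did not pass, 3 of the 11 rose, Dppa3 (1.98), Mfap5 (0.548) and Rimklb (0.361), and 2 fell, Nanog (−0.669) and Slc2a3 (−0.371). Around Tdgf1, 8 of 16 tested neighbours rose and 0 fell on day 6, when Tdgf1 rose: Ltf (2.19), Gm10030 (1.41), Lrrc2 (0.998), Prss42 (0.989), Prss45 (0.888), Als2cl (0.886), Prss50 (0.571) and Lrrfip2 (0.207). The start of Lrrc2 is 5387 bases from that of Tdgf1. On day 4, when Tdgf1 did not pass, 5 of the 16 rose and 0 fell. Of these, Prss45 (1.20), Prss50 (0.571) and Lrrc2 (0.422) also rose on day 6, whereas Prss46 (1.67) and Ccrl2, which was at 0 in the controls and at 0.0974 CPM with auxin, did not pass then. On day 2, when Tdgf1 did not pass either, Pth1r (0.769) and Lrrc2 (0.32) rose and Prss50 fell (−0.753).

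Beside the Lefty genes, Ephx1 rose with auxin on all 3 days (0.505, 0.771 and 0.663). Other neighbours that changed there included H3f3aos, which rose on day 2 (0.974) and fell on day 6 (−0.631), H3f3a, which fell on day 6 (−0.256), and, within reach of Lefty2, Mixl1, which rose on days 4 and 6 (0.832 and 0.793). Around Foxh1 neighbours went both ways. On day 2 Scrt1 (1.80), Dgat1 (0.611) and Slc39a4 (0.296) rose, and on day 4 Kifc2 (0.435) and Slc39a4 (0.208) rose while Lrrc24 (−0.762), Arhgap39 (−0.45), Ppp1r16a (−0.26) and Recql4 (−0.237) fell. On day 6 Mfsd3 (0.487), Kifc2 (0.372), Slc39a4 (0.355) and Dgat1 (0.272) rose and Scrt1 (−3.17), Lrrc24 (−0.615), Arhgap39 (−0.497), Ppp1r16a (−0.265) and Bop1 (−0.19) fell. Around Nodal 0 of 5 tested neighbours passed on day 2, when Nodal fell, and around Smad7 1 of 3, Gm10532, rose on day 4 (2.89, at 0.128 CPM). As all these calls came from 1 fit, the share of all genes called, given above, is the background for them.

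Across the 12 group means, members resembled each other to different degrees. The correlation of log2 CPM was 0.981 between Nodal and Lefty2, 0.974 between Gdf3 and Lefty2 and 0.954 between Nodal and Gdf3, and over the 8 differentiation groups it was 0.991 between Lefty1 and Lefty2. Acvr2b had negative values with the other 7 members (−0.124 to −0.51), whereas over the 8 differentiation groups they ran from −0.711 with Smad7 to 0.12 with Foxh1, with Nodal (0.04) and Lefty1 (0.015) also above 0. These groups share time points, so the values are descriptions.

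Among 13884 other genes, those most like each member over the 12 groups were Was, Gm7325 and Acp6 for Nodal (0.994 each), Eed (0.991), Gpa33 and Zbtb44 (0.989 each) for Gdf3 and Tdgf1-ps1 (0.993), Gm13436 and Gm45470 (0.992 each) for Tdgf1. For Acvr2b they were Ccdc85c (0.954), E330009J07Rik (0.923) and Lhfpl4 (0.915), and for Foxh1 Vwf (0.989), Kbtbd8 (0.988) and AC159290.1 (0.986). For Lefty1 they were Tle6 (0.986), Ptprcap (0.984) and Sesn1 (0.978), for Lefty2 Mrpl15 (0.993), AC160863.2 (0.991) and Vwa3b (0.99), and for Smad7 Gm13340 (0.985), Gm28661 (0.983) and Gm28437 (0.98). Group means of Acvr2b spanned 2.31-fold, against 78.6-fold for Lefty2.

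Ordered by group mean, neighbouring groups did not overlap in 3 of 11 steps for Nodal, 4 for Acvr2b, 5 for Lefty1 and Smad7, 6 for Foxh1 and Lefty2 and 7 for Gdf3 and Tdgf1. Nodal had separate libraries between day 2 control (78.8 CPM on average) and ES cells at 96 h (51.2 CPM), between day 2 auxin (49.8 CPM) and day 4 washout (4.84 CPM) and between day 6 washout (4.05 CPM) and day 6 auxin (3.38 CPM). For Acvr2b the order was day 4 control (49.4 CPM), day 6 control (44.6 CPM), without overlap, and then 7 groups from day 2 control (36.9 CPM) to ES cells at 24 h (28.04 CPM) of which each overlapped the next. For Gdf3 the day 4 auxin (11.4 CPM), day 6 auxin (10.1 CPM) and day 4 washout (8.28 CPM) groups followed each other without overlap, above day 6 washout (7.08 CPM), which overlapped day 4 control (6.34 CPM), and above day 6 control (4.90 CPM).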

How the data were processed

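RNA-seq of 24 libraries in 12 groups was used. The authors deposited whole-number read counts per gene in 1 table, not normalized. STAR, HTSeq, edgeR and the mm10 build are named in the submitters' processing notes, with versions not given in the sources used here. Replicates were not pooled, 1 line that names no gene was dropped, and 0 columns were unused. Between 59.6% and 78% of counts from 1 to 20 were even numbers, and the reason is not given in the labels.

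Genes were kept with edgeR's filterByExpr (minimum count 10, minimum total 15), scaled with TMM and tested with edgeR 4.0.16's quasi-likelihood test in R 4.3.3, with Benjamini-Hochberg adjustment over all genes tested and a threshold of 0.05. The 17 comparisons were fitted in the 8 ES libraries, the 16 differentiation libraries or, where they span both, all 24. Alternatives were DESeq2 1.42.0 (its size factors and its Wald test), limma 3.58.1 (voom), no filter, 1 fit of all 24 libraries, a replicate block, halved counts, a threshold of 0.01 and leaving out each library. CPM uses TMM-scaled library sizes, and lengths are merged exons of GENCODE vM21. Neighbours lie within 200 kb between starts, likeness is Pearson's r of log2 CPM over the 12 groups, and coding sequences were aligned with Biopython 1.88. The edgeR fit was tested on simulated counts with planted changes, for auxin on day 4 and for 96 h in ES cells. Unlike the real counts, these had the same spread for all genes and groups of a set and no effect of replicate number. The simulation therefore cannot show how the fit handles such features. The other comparisons and steps were not tested in this way.

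Named genes are the 8 members, up to 4 other pathway genes per comparison with the largest change past the threshold, called neighbours, and the 3 genes most like each member. A called neighbour and a pathway gene are counted but not reported by name here. Others, among them Smad3, Inhba on day 6 and Fst, were named after their values were seen. Members, lists and tests were chosen with earlier results of these data known, and AGNGGGC was added after the promoter letters were seen.

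Replicate numbers come from the labels. Deviations of same-numbered libraries correlated at 0.183 (0 h with 96 h) to 0.736 over the 6 pairs of ES groups. The numbers were taken to pair ES libraries in the replicate block, which was an alternative to the main fit. Over the 28 pairs of differentiation groups the values were −0.201 to 0.159, and those libraries share only a number.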

Additional observations from a re-analysis of the deposited data

Results flagged for a closer look

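In 6 cases the effect of auxin on a member differed between time points by edgeR's quasi-likelihood test of the difference itself, on the log2 scale. From day 2 to day 4 of differentiation the effect on Nodal increased by 0.81 (adjusted p = 0.00071), that on Gdf3 by 0.97 (0.00041) and that on Foxh1 by 0.72 (4e-04). From day 4 to day 6 the effect on Tdgf1 increased by 0.59 (0.009) and that on Foxh1 by 0.59 (0.0077). The effect on Lefty2 on day 4 of differentiation was 2.37 above that of 96 h in ES cells (0.0034), a p-value that may be too small for the reason given above. Groups of 2 libraries were too small for a search for single libraries that stand apart.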

How the results depend on the processing

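In 1 fit of all 24 libraries, 1 member was called between days 4 and 6 of control cells (5 in the separate fit), 0 for auxin on day 2 (4), 1 on day 4 (6) and 1 on day 6 (6), 0 (5) and 3 (8) for the day 4 washout against auxin and control cells, 0 (4) for the day 6 washout and 0 for the differences of effects from day 2 to 4 (3) and day 4 to 6 (2). At 96 h in ES cells, where 0 were called, that fit gave 3, no filter 3, DESeq2 1 and the replicate block 2. For the day 4 effect minus that of 96 h (1 member), no filter gave 4, DESeq2 4, limma-voom 3 and the replicate block 2. A threshold of 0.01 gave 3 between days 4 and 6, 2 for auxin on day 2 and 3 for the day 4 washout against auxin cells. The call of Foxh1 for auxin on day 2 ended with the block (adjusted p = 0.058) and with no filter (0.15), and that of Foxh1 in the day 4 washout against controls with no filter (0.082). Acvr2b on day 4 against ES cells did not pass with DESeq2 size factors (0.059) or no filter (0.065). Nodal from day 4 to 6 did not pass with DESeq2 size factors (0.055), no filter (0.13), DESeq2 (0.08) or halved counts (0.069). Leaving out 1 library changed the number of members called in several comparisons, among them auxin on day 2 and the differences of effects. The number of all genes called also moved in these fits. Such a fit leaves 1 library in a group, so its counts are not given here. No called value of a member changed sign in these alternatives, and the causes of the changes were not tested. Lefty2 had the lowest count, 71 reads in 1 day 6 control library, which limits its precision.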
